A study of Homo sapiens with 8 samples.

Results

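UV-A irradiation of cells that held the compound 1-SO was examined by setting the 1-SO UV-A library against the 1-SO dark library, which are 2 of the 8 libraries of the series and were chosen by their labels. The cells were MDA-MB-231, a human breast cancer line of the triple-negative class, at passage 8 in all groups used here except those of the second round. The 1-SO UV-A well had received 10 µM 1-SO for 24 h and then 30 min of UV-A under 8 bulbs emitting between 325 and 375 nm. The 1-SO dark well had the same compound and time but stayed wrapped in foil. The vehicle UV-A and vehicle dark wells of the same round had 1% DMSO and no compound. The labels state no DMSO level for the compound wells. The irradiated wells shared a plate and the dark wells shared another, so plate and light cannot be told apart. Each group is 1 library from 1 well of a single line. There was therefore no replicate check and no test. A gene was called by size, at a ratio of at least 2-fold, and each ratio was given with a 95% interval that covers counting error only.

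1-SO joins an oxidised dibenzothiophene to triphenylphosphonium. Dibenzothiophene S-oxides lose their oxygen under UV-A and are used as light-driven sources of atomic oxygen, and triphenylphosphonium is a lipophilic cation that carries its cargo into mitochondria. The comparison addressed what light did to transcripts once the compound was in the cells. Cells meet oxidants and stalled organelles with several known programmes. Oxidised KEAP1 frees NRF2, which turns on antioxidant and glutathione genes. Kinases that phosphorylate eIF2 slow translation and favour ATF4, which turns on genes for amino acid supply and for the stress factor CHOP.

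The 1-SO UV-A library held 22.2 M counted reads and the 1-SO dark library 17.8 M, against 15.8 M in vehicle UV-A and 18.8 M in vehicle dark. Mesenchymal markers were divided. VIM stood at 283 FPKM (fragments per kilobase of transcript, scaled to the library's reads) in 1-SO UV-A and 317 in 1-SO dark. TWIST1 was at 0 in both, and CDH2 had 0.0104 FPKM in 1-SO UV-A and 0 in 1-SO dark. ESR1, PGR and CDH1 lay at or under 0.0487 FPKM in the 1-SO libraries, while ERBB2 stood at 27.8 and 23.5 FPKM and EPCAM at 4.75 and 4.96. Of 12 markers of other cell types, 9 lay at or under 0.121 FPKM in the 4 libraries of round 1, among them PTPRC of leukocytes, ALB of hepatocytes and PDGFRA of fibroblasts, and CD3E and ADIPOQ were at 0. The others were CD14 of monocytes, at 0.788 FPKM in 1-SO UV-A and 1.16 in 1-SO dark, PDGFRB of pericytes, at 0.709 and 1.15, and COL1A1 of fibroblasts, at 2.67 and 2.08. Levels are shares of a library's reads, so fewer cells and less RNA in each cell cannot be told apart.

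Many transcripts differed between irradiated and dark cells that held 1-SO, and few between the dark libraries. Of 12238 genes that passed the filter on low values, 1062 (8.68%) differed at least 2-fold between 1-SO UV-A and 1-SO dark, 591 higher (4.83%) and 471 lower (3.85%). In vehicle cells of the same round, on the same plates, 190 genes (1.55%) did, 108 higher (0.882%) and 82 lower (0.67%). Between 1-SO dark and vehicle dark 49 genes (0.4%) differed at least 2-fold. The ratios were scaled to library totals, on which the median gene lay at log2 0.12. Scaling by TMM or by median of ratios moved that median by -0.12, so a log2 ratio near 0.12 is that of a typical gene. With TMM 1054 genes were called, 432 higher and 622 lower, so the share of higher calls was 41.0% in place of 55.6%. With median of ratios that share was 40.8%.

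MMP1, a secreted collagenase, led the 15 highest protein-coding genes with at least 100 reads in the pair, with 387 FPKM in 1-SO UV-A and 25.4 in 1-SO dark, beside 141 in vehicle UV-A and 24.7 in vehicle dark. Its log2 ratio was 3.93 (counting interval 3.83 to 4.03). HSPA6, a strictly inducible HSP70, stood at 4.47 FPKM against 0.319, a log2 ratio of 3.77 from 263 and 15 reads. ADM2, a peptide hormone induced by ATF4, had 14.2 FPKM against 1.59, and GCKR, the glucokinase regulator, had 9.49 against 1.08. The remaining 11 were SLC7A11, CTH, PANX2, GADD45G, CYP1B1, KRT34, SERPINB2, FOSB, WNK4, CCND2 and CHAC1, with log2 ratios between 2.80 and 2.39. Of the 15, ADM2 and WNK4 had log2 ratios under 0 in vehicle cells, at -0.04 and -0.33. The filter on mean FPKM includes 1-SO UV-A, so a gene low elsewhere, such as HSPA6, PANX2, GADD45G or KRT34, can pass by its level there.

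LFNG, a glycosyltransferase that modifies Notch receptors, was the lowest of the genes with that many reads. It had 0.644 FPKM in 1-SO UV-A and 11.5 in 1-SO dark, beside 4.79 in vehicle UV-A and 11.4 in vehicle dark, a log2 ratio of -4.13 (counting interval -4.70 to -3.65). TNS4, an adhesion adaptor, had 0.476 FPKM against 4.90 in 1-SO cells but 5.29 in vehicle UV-A, a log2 ratio of 0.27. SLCO4A1, an organic anion transporter, had 4.92 against 42.4 in 1-SO cells and 29.5 against 41.8 in vehicle cells. APLN, which encodes a secreted peptide, had 0.238 against 1.61 in 1-SO cells and 1.61 against 1.88 in vehicle cells. Thus TNS4 and APLN were at or near their dark level in irradiated vehicle cells and at or under 0.48 FPKM in irradiated 1-SO cells. The other 11 were MT-ND6, PARD3B, E2F2, NEGR1, GPC6, SDK1, FHOD3, MAMDC2, MT-ND3, KIRREL3 and KRT80, and they are taken up by group.

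**Figure D1:**
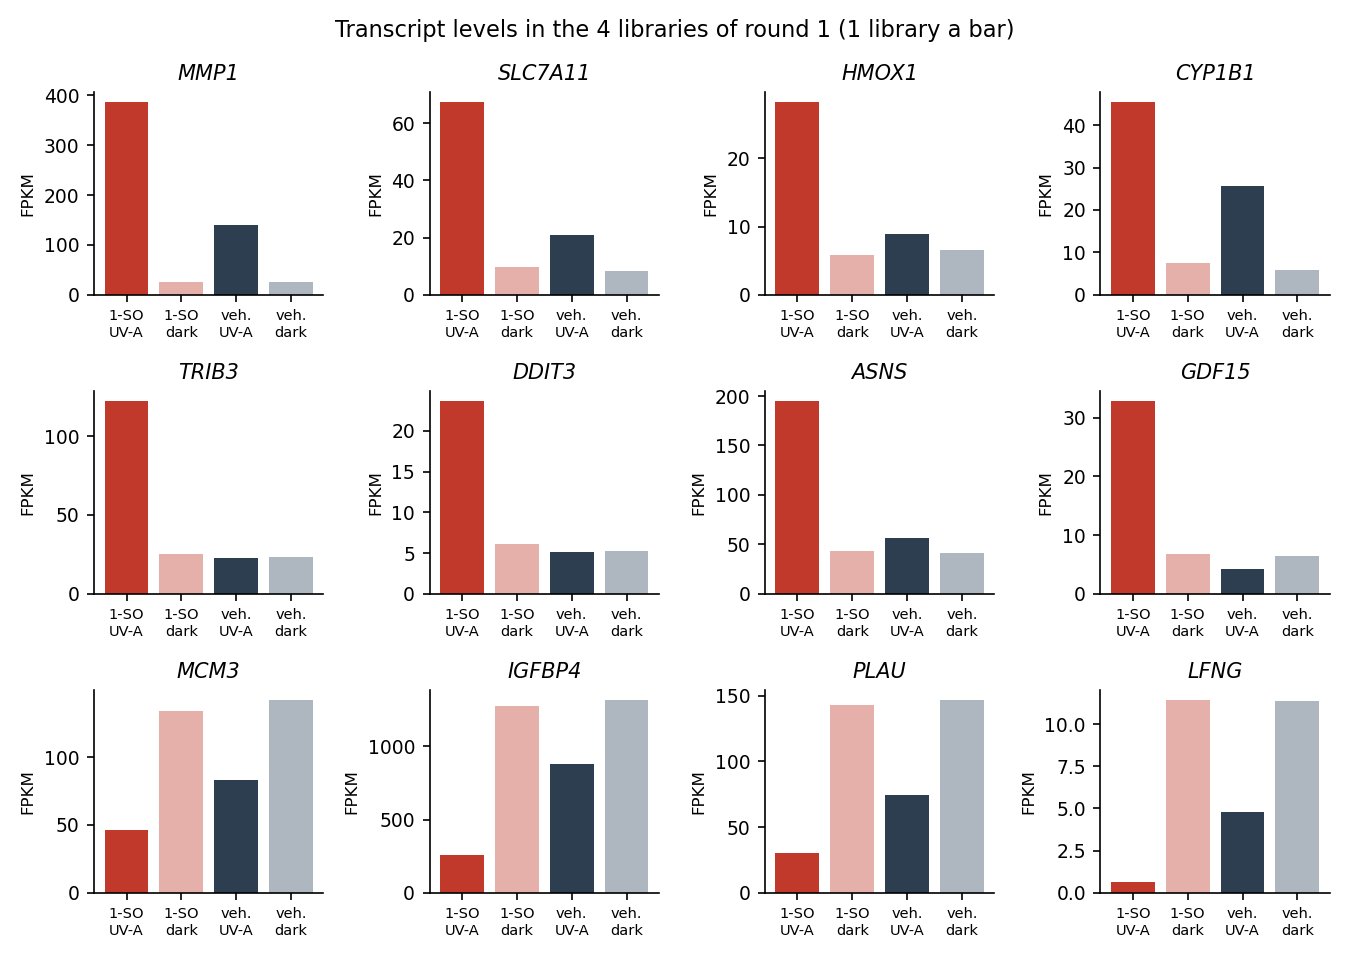
Transcript levels in FPKM (y axes, linear from 0) of 12 genes in the 4 libraries of round 1, 1 library a bar. MMP1, SLC7A11, HMOX1 and CYP1B1 were also higher in vehicle UV-A than in vehicle dark, whereas TRIB3, DDIT3 and GDF15 were high in 1-SO UV-A alone among the 4 libraries. MCM3, IGFBP4, PLAU and LFNG had their lowest level in 1-SO UV-A and a middle level in vehicle UV-A.

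In reads, the largest gains and losses lay with very abundant transcripts. The translation factor EEF1A1 gained 3753 reads per 1000000 library reads (CPM) and stood at 2922 FPKM in 1-SO UV-A and 2077 in 1-SO dark, a log2 ratio of 0.49. FTL, the ferritin light chain, gained 2710 CPM, and TXNRD1, HSPA5 and SQSTM1 came next. The largest loss was that of MT-CO1, at -5677 CPM. MT-ND4, MT-CO2, IGFBP4 and MT-CO3 followed.

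Most genes called with 1-SO had the same sign under light without compound. Of the 591 genes at least 2-fold higher in 1-SO cells, 504 (85.3%) also had a ratio above 0 in vehicle cells, and of the 471 lower genes 396 (84.1%) were below 0 there. Of all 12238 genes 59.9% were above 0 in vehicle cells and 40.1% below. The 2-fold lists shared 58 higher genes, which are 9.81% of those of 1-SO cells and 53.7% of those of vehicle cells. They shared 46 lower genes, 9.77% and 56.1% of each list. The median of the 591 higher genes was 1.27 on the log2 scale in 1-SO cells and 0.39 in vehicle cells, and that of the 471 lower genes was -1.33 and -0.45. Of the 1062 genes, 1045 were farther from 0 with 1-SO, a count that their choice by the 1-SO ratio favours. Within 1.2-fold of equal in vehicle cells were 176 of the higher and 120 of the lower genes. The comparisons share no library but share both plates.

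**Figure D2:**
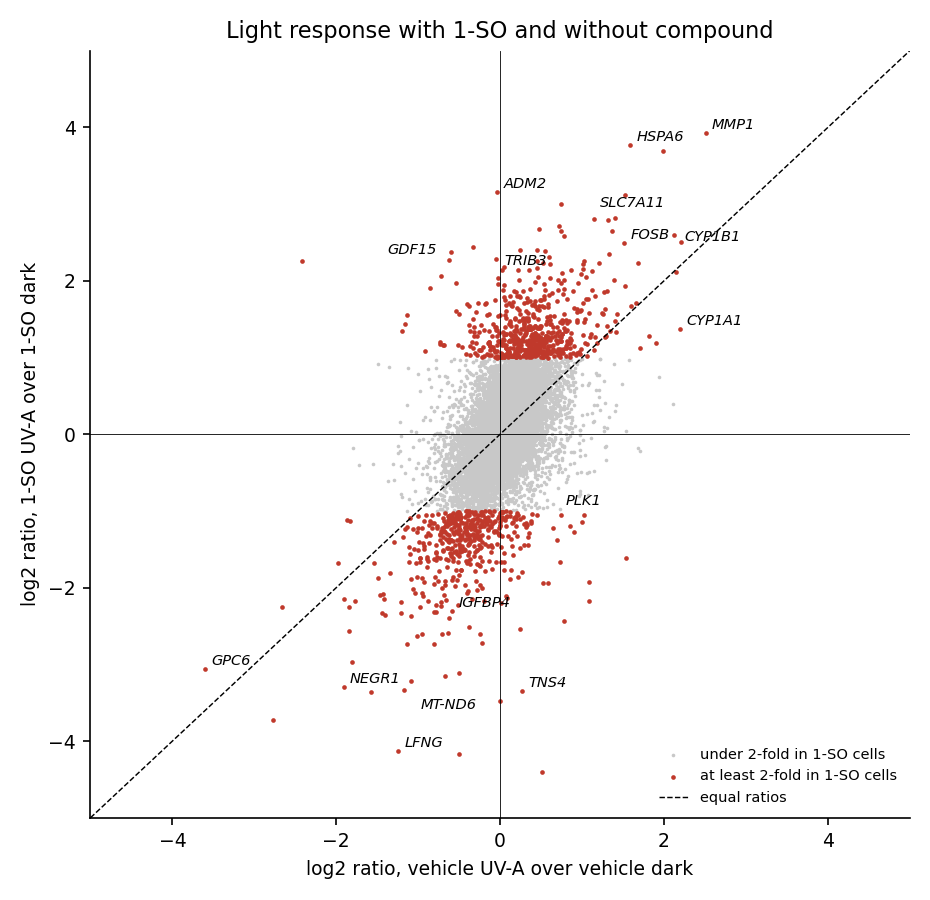
Log2 ratio of UV-A over dark in 1-SO cells (y axis) against that in vehicle cells (x axis) for 12238 genes of round 1, each point a gene. The 1062 genes at least 2-fold different with 1-SO are red, and the dashed line marks equal ratios. ADM2, TRIB3, MT-ND6 and TNS4 lie near 0 on the x axis, whereas CYP1A1 and GPC6 lie on the vehicle side of the dashed line.

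Most listed genes of the eIF2, ATF4 and CHOP programme were higher in irradiated 1-SO cells and near their dark level in irradiated vehicle cells. Of 20 genes in this list that passed the filter, 12 were at least 2-fold higher and 0 lower, beside 4.83% and 3.85% of all genes, the shares against which the counts of the other lists are to be read. Their median log2 ratio was 1.25 with 1-SO and 0.09 in vehicle cells. ATF4, the transcription factor itself, had 321 FPKM in 1-SO UV-A and 158 in 1-SO dark (log2 1.02), against 145 in vehicle UV-A and 148 in vehicle dark. DDIT3, which encodes CHOP, had 23.7 against 6.06 FPKM in 1-SO cells and 5.16 against 5.27 in vehicle cells. TRIB3, a pseudokinase that restrains ATF4 signalling, had 122 against 25.1 in 1-SO cells and 22.4 against 23.1 in vehicle cells. DDIT3 and TRIB3 were thus high in 1 library of the 4.

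Factors that pair with ATF4 or act after it were higher as well. CEBPB had 162 FPKM in 1-SO UV-A and 50.4 in 1-SO dark, CEBPG 39.2 and 16.8, and ATF3, an ATF family repressor of the early stress response, 16.5 and 5.42. NUPR1, a small chromatin protein induced by stress, had 26.5 and 5.85 FPKM. CHAC1, which degrades glutathione, stood at 48.0 FPKM in 1-SO UV-A and 9.16 in 1-SO dark (log2 2.39), and at 12.0 in vehicle UV-A and 8.23 in vehicle dark. PPP1R15A, the subunit that directs a phosphatase to eIF2, had 356 and 72.1 FPKM with 1-SO and 112 and 74.0 in vehicle cells. SESN2 and DDIT4, which restrain mTORC1, had log2 ratios of 2.05 and 1.97 with 1-SO. For DDIT4 the ratio in vehicle cells was -0.54. VLDLR, a lipoprotein receptor, had a log2 ratio of 1.28.

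The eIF2 kinases differed among themselves. EIF2AK3, the kinase PERK of the endoplasmic reticulum, had a log2 ratio of 0.83, EIF2AK2 (PKR) 0.44, EIF2AK4 (GCN2) 0.01 and EIF2AK1 (HRI) -0.17. None was 2-fold different. OMA1 and DELE1 (listed as KIAA0141), which signal mitochondrial stress to HRI, had log2 ratios of -0.28 and -0.05, and ATF5 had -0.39. These are transcript levels and say nothing of the kinases' activity.

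ATF4 acts at composite sites shared with C/EBP proteins, so the RefSeq promoters (GRCh38.p14, 250 bases before to 50 bases after the gene start) were searched on both strands for TGATGNAA. In that window it occurred in 4.83% of 331 promoters of genes at least 2-fold higher, 2.56% of 312 of genes at least 2-fold lower, 1.64% of 9040 promoters of kept protein-coding genes and 3.67% of all 27305 promoters in the table. In the eIF2 list 3 of 18 promoters held it, those of CHAC1, ATF3 and PPP1R15B. CHAC1 (+ strand of chr15:40953221-40953520) and ATF3 (+ strand of chr1:212565157-212565456) are shown because they are the members of the list at least 2-fold higher whose windows hold it. Capitals mark the match, which begins 209 bases before the gene start in CHAC1, on the reverse strand, and 191 bases before it in ATF3. A match describes the letters only.
CHAC1: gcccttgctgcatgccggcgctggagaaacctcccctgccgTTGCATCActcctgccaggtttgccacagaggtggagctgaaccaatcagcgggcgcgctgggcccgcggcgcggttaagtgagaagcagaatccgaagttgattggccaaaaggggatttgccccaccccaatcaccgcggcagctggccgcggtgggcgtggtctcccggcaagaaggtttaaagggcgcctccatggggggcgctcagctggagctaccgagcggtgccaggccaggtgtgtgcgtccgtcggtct
ATF3: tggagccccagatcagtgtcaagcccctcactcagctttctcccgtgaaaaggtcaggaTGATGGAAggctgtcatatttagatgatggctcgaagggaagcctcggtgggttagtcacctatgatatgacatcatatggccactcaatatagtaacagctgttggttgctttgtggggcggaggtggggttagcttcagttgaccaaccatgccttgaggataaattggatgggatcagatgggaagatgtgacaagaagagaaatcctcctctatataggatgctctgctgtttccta

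Some genes for amino acid supply were at least 2-fold higher. Of 14 genes of serine, one-carbon, asparagine and proline synthesis that passed the filter, 5 were and 1 was 2-fold lower, beside 4.83% and 3.85% of all genes, with a median log2 ratio of 0.84 with 1-SO and -0.18 in vehicle cells. CTH, which makes cysteine, had 68.9 FPKM in 1-SO UV-A and 10.8 in 1-SO dark, and ASNS, asparagine synthetase, had 195 and 43.5. PSAT1 and PHGDH of serine synthesis had 257 and 45.7 FPKM in 1-SO UV-A, against 78.8 and 20.5 in 1-SO dark. In vehicle cells PSAT1 had 69.6 FPKM with UV-A and 83.7 in the dark, and PHGDH 18.9 and 20.5. GPT2, an alanine aminotransferase, stood at a log2 ratio of 1.00. The lower gene was MTHFD1, a cytosolic folate enzyme that also serves nucleotide synthesis, with 25.4 FPKM against 52.7 (log2 -1.06).

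Of 12 amino acid transporters 6 were at least 2-fold higher and 0 lower, with a median log2 ratio of 0.97 with 1-SO and 0.10 in vehicle cells. SLC3A2, the heavy chain shared by several exchangers, had 459 FPKM in 1-SO UV-A and 175 in 1-SO dark, against 186 in vehicle UV-A and 178 in vehicle dark. SLC7A11, the cystine transporter, had 67.5 and 9.72 FPKM with 1-SO and 21.0 and 8.44 in vehicle cells. SLC38A1, SLC1A4, SLC6A9 and SLC1A5, carriers of neutral amino acids, had log2 ratios between 1.34 and 1.04 with 1-SO and between -0.29 and 0.24 in vehicle cells. Of 20 cytosolic tRNA synthetases, which load tRNAs with amino acids, 4 were at least 2-fold higher, beside 4.83% of all genes, and 0 lower. These were GARS, SARS, WARS and AARS, with log2 ratios from 1.26 to 1.03. The list's median was 0.43, and 0.04 in vehicle cells.

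Secreted stress signals were both higher and lower. GDF15, a stress-induced cytokine, had 32.9 FPKM in 1-SO UV-A and 6.80 in 1-SO dark, a log2 ratio of 2.27 (2.06 to 2.49), but 4.23 in vehicle UV-A and 6.50 in vehicle dark, a log2 ratio of -0.62. ADM2 had 1.89 FPKM in vehicle UV-A and 1.94 in vehicle dark, beside the values with 1-SO given above. VEGFA, an angiogenic factor, had a log2 ratio of 0.61. ANGPTL4, an inhibitor of lipoprotein lipase, had 0.958 FPKM against 4.85 (log2 -2.32). FGF21, INHBE and STC2, also known ATF4 targets, were under the filter.

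In the unfolded protein response of the endoplasmic reticulum 5 of 23 genes were at least 2-fold higher, beside 4.83% of all genes, and 0 lower, with a median log2 ratio of 0.58 with 1-SO and 0.06 in vehicle cells. ERN1, the sensor IRE1, had 17.4 FPKM in 1-SO UV-A and 4.44 in 1-SO dark, and XBP1, whose mRNA IRE1 splices, 79.6 and 34.5. DNAJB9 and HERPUD1, which serve folding and degradation, had log2 ratios of 1.54 and 1.32. HSPA5, the chaperone BiP, had 603 FPKM in 1-SO UV-A and 301 in 1-SO dark, against 297 in both vehicle libraries. Of 17 cytosolic heat shock genes 2 were at least 2-fold higher, HSPA6 and HSPB8 (log2 1.88). The median was -0.03, and 10 of the 17 were below 0. HSPA1A had a log2 ratio of 0.85, from reads that its near-identical copy HSPA1B could share.

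**Figure D3:**
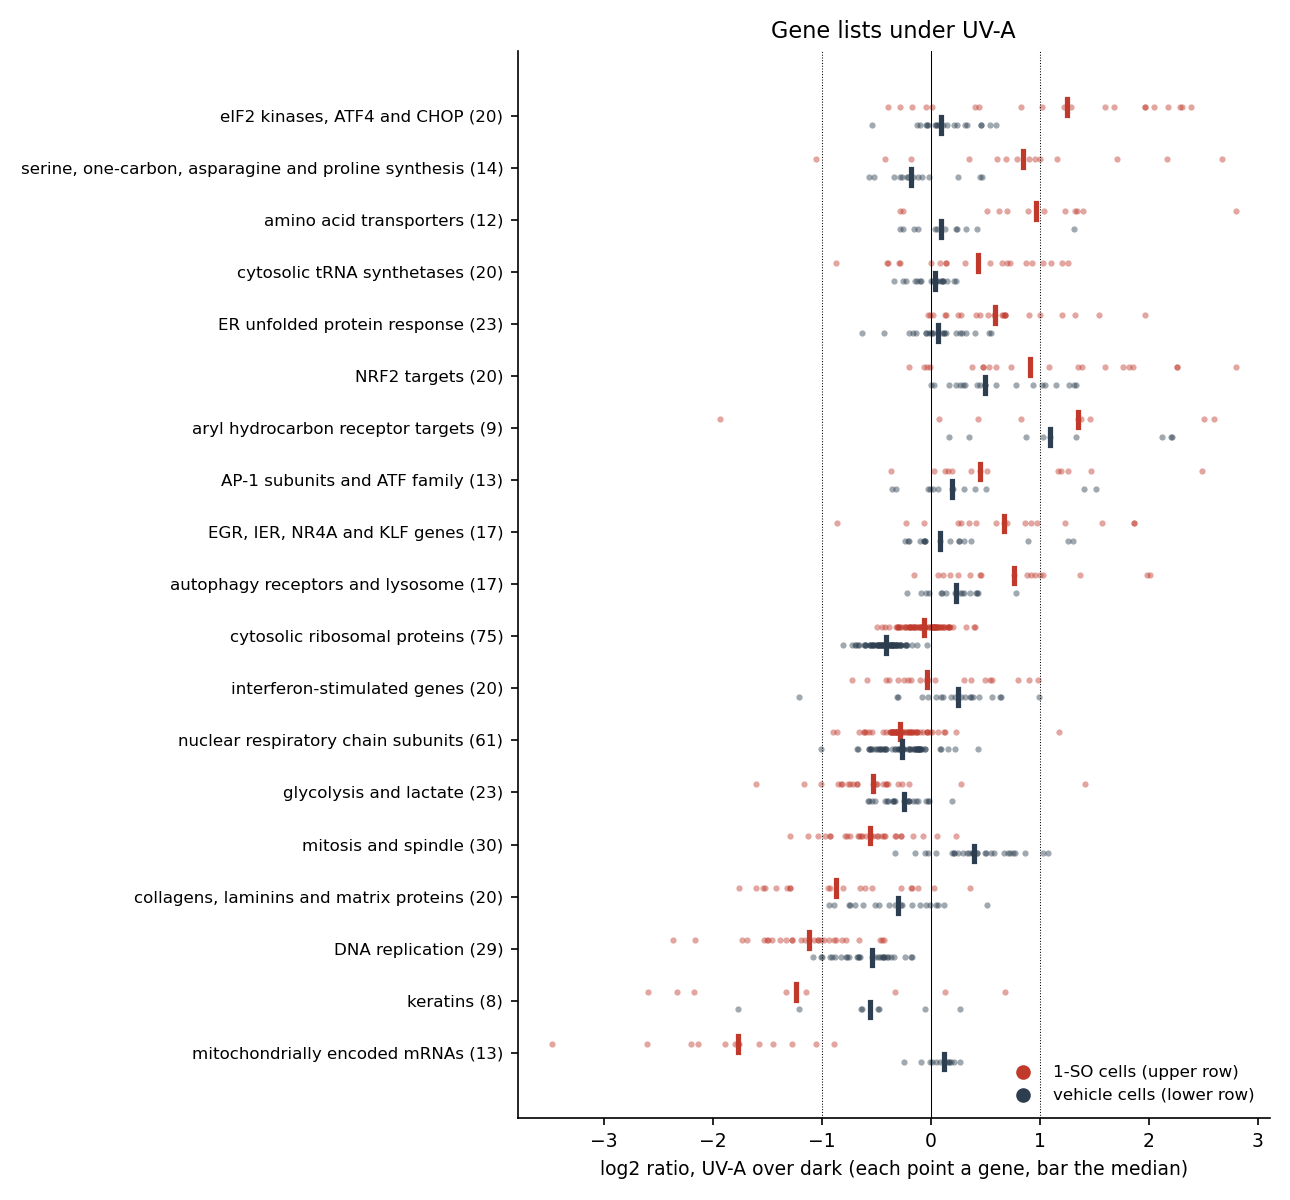
Log2 ratios of UV-A over dark (x axis) for the kept members of 19 gene lists, with 1-SO cells in red above vehicle cells in dark blue. Each point is a gene, bars are medians and dotted lines mark 2-fold. The eIF2, ATF4 and CHOP list has medians of 1.25 and 0.09, the list of mitochondrially encoded mRNAs -1.76 and 0.12, and the mitosis list -0.55 and 0.39.

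Several NRF2 targets were higher in irradiated cells with and without compound. Of 20 that passed the filter, 10 were at least 2-fold higher and 0 lower with 1-SO, against 6 and 0 in vehicle cells. The median log2 ratio was 0.91 with 1-SO and 0.49 in vehicle cells, and 14 of the 20 genes had the larger ratio with 1-SO. Of 3055 protein-coding genes that span 20 to 50 kb, 1353 had the lower ratio with 1-SO, so a larger ratio was common. HMOX1, haem oxygenase, had 28.3 FPKM in 1-SO UV-A and 5.90 in 1-SO dark, against 8.92 in vehicle UV-A and 6.51 in vehicle dark. NQO1, a quinone reductase, was at the same level under UV-A with and without 1-SO, with 127 FPKM in 1-SO UV-A and 49.7 in 1-SO dark, against 128 in vehicle UV-A and 50.7 in vehicle dark. The ferritin chains FTH1 and FTL had log2 ratios of 2.26 and 1.76 with 1-SO and of 1.02 and 1.04 in vehicle cells. Both have many processed pseudogenes that could share their reads. GCLM of glutathione synthesis and TXNRD1, thioredoxin reductase, had log2 ratios of 1.39 and 1.59, and OSGIN1, AKR1C1 and UGDH of 1.81, 1.85 and 1.08.

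Of 15 genes for superoxide dismutases, peroxiredoxins and glutathione peroxidases 0 were at least 2-fold higher and 1 lower, with a median log2 ratio of -0.17 with 1-SO and -0.22 in vehicle cells. MSRA, which repairs oxidised methionine, had 4.17 FPKM against 10.4 (log2 -1.32), and the peroxidases GPX1, PRDX3 and PRDX2 had log2 ratios of -0.92, -0.81 and -0.75. The metallothioneins MT1E and MT2A had log2 ratios of -0.77 and -0.67. The letters TGACNNNGC, the core of the antioxidant response element, occurred in 18.4% of the promoter windows of higher genes, 11.9% of those of lower genes, 15.2% of those of kept genes and 13.6% of all in the table.

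Several targets of the aryl hydrocarbon receptor, a sensor of aromatic ligands, were higher under UV-A in either cell population. Of 9 that passed the filter, 5 were at least 2-fold higher and 1 lower with 1-SO, against 6 and 0 in vehicle cells. CYP1B1, a P450 enzyme that oxidises aromatic compounds, had 45.6 FPKM in 1-SO UV-A and 7.53 in 1-SO dark, against 25.7 in vehicle UV-A and 5.91 in vehicle dark. Its relative CYP1A1 had 5.88 and 2.26 FPKM with 1-SO, less than the 8.15 in vehicle UV-A, with 1.76 in vehicle dark. TIPARP, a feedback inhibitor of the receptor, had log2 ratios of 1.46 and 1.03. ALDH3A1, an aldehyde dehydrogenase, had 0.294 FPKM in 1-SO UV-A and 1.15 in 1-SO dark, but 3.19 in vehicle UV-A and 1.49 in vehicle dark, on few reads. CYP1B1 and CYP1A1 thus differed in where they were highest. The core GCGTG of the xenobiotic response element occurred in 48.3% of windows of higher genes, 46.8% of lower genes, 52.1% of kept genes and 36.3% of all.

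Some immediate early genes, which are transcribed within minutes of many stimuli, were higher. Of 13 AP-1 and related bZIP genes 5 were at least 2-fold higher and 0 lower, with a median of 0.45 with 1-SO and 0.20 in vehicle cells. FOSB had 3.88 FPKM in 1-SO UV-A and 0.685 in 1-SO dark, against 2.31 in vehicle UV-A and 0.803 in vehicle dark. FOS had log2 ratios of 1.47 with 1-SO and 1.40 in vehicle cells, whereas JUNB had 1.19 and 0.20, and MAFF 1.17 and 0.07. Of 17 EGR, IER, NR4A and KLF genes 4 were higher and 0 lower, and these were ARC, ZFP36, EGR1 and KLF4 with log2 ratios of 1.86, 1.87, 1.57 and 1.23. The ratios of FOS and EGR1 were close in both cell populations (EGR1 at 1.26 in vehicle cells), while those of JUNB and KLF4 were farther from 0 with 1-SO (KLF4 at 0.18 in vehicle cells).

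The letters TGANTCA, bound by AP-1, occurred in 8.46% of the windows of higher genes, 4.49% of lower genes, 4.2% of kept genes and 7.76% of all. They can overlap the antioxidant core. Among the 15 highest genes the windows of HSPA6, at 244 and 139 bases before the gene start, and of SERPINB2 held them. MMP1, SLC7A11, PANX2, CYP1B1, WNK4 and CCND2 of the 15 matched no promoter and were not searched. SERPINB2, an inhibitor of plasminogen activators, had 2.42 FPKM in 1-SO UV-A and 0.418 in 1-SO dark, against 1.88 in vehicle UV-A and 0.395 in vehicle dark. Its promoter (+ strand of chr18:63887455-63887754, GRCh38.p14) is shown because its match, in capitals 102 bases before the gene start, overlaps no other motif searched, whereas a match in HSPA6 overlaps the antioxidant core.
SERPINB2: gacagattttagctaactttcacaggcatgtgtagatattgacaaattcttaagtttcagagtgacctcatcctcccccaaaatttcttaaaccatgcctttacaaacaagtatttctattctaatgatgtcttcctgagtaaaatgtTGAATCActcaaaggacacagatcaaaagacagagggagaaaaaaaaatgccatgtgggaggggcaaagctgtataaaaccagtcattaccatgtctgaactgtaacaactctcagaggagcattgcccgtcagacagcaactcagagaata

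Feedback inhibitors of MAP kinases were mixed. DUSP16 and DUSP5, which dephosphorylate MAP kinases, had log2 ratios of 1.23 and 1.10, DUSP6 had -0.82, and SPRY1, an inhibitor of receptor signalling, had 8.23 FPKM against 26.1 with 1-SO (log2 -1.66) and 26.3 against 26.2 in vehicle cells. Of 17 NF-kB cytokines and inhibitors 4 were at least 2-fold higher, the chemokines IL8 (CXCL8) and CXCL2, the prostaglandin synthase PTGS2 and the subunit RELB, with log2 ratios from 1.30 to 1.01. The cytokines IL11 and CSF2 were lower, at -1.83 and -1.28. Of 20 interferon-stimulated genes 0 were 2-fold different in either direction with 1-SO, and the median was -0.03, against 0.25 in vehicle cells. The EGF receptor partner ERBB3 was at 1.03.

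CDKN1A, the cell cycle inhibitor p21, had a log2 ratio of 1.76 over its 74.0 FPKM in 1-SO dark, with 81.4 FPKM in vehicle UV-A and 78.2 in vehicle dark. The growth arrest genes GADD45G and GADD45A had log2 ratios of 2.65 and 1.47 with 1-SO, and BBC3, a death-promoting BCL2 relative also known as PUMA, had 1.39. MDM2, a ubiquitin ligase, had 0.16 and BAX, which opens the outer mitochondrial membrane in apoptosis, -0.01. In the BCL2 family BID, which links death receptors to mitochondria, had 4.33 FPKM against 11.0 (log2 -1.34).

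Some autophagy genes were at least 2-fold higher with 1-SO. Of 17 receptor, lipidation and lysosome genes 5 were, beside 4.83% of all genes, and 0 were lower. All 17 of 17 had a larger ratio with 1-SO than in vehicle cells. Of 3055 protein-coding genes that span 20 to 50 kb, 1353 had the lower ratio with 1-SO. The medians were 0.76 and 0.23. SQSTM1, the receptor p62, had 461 FPKM in 1-SO UV-A and 114 in 1-SO dark, against 196 in vehicle UV-A and 114 in vehicle dark. GABARAPL1 and MAP1LC3B, which coat autophagosomes, had log2 ratios of 1.98 and 1.37. WIPI1 and the lysosomal regulator TFEB had 1.03 and 1.00.

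The mRNAs of the mitochondrial genome were lower in irradiated 1-SO cells than in any other library of round 1. They encode subunits of the respiratory chain and of ATP synthase. Of the 13 mRNAs 12 were at least 2-fold lower, with a median log2 ratio of -1.76 with 1-SO and 0.12 in vehicle cells. In reads they made up 0.93% of 1-SO UV-A and 3.02% of 1-SO dark, against 2.76% of vehicle UV-A and 2.58% of vehicle dark. In the second round, with cells of passage 32 to 34, the share was 2.40% in 1-S UV-A and 2.87% in 1-S dark. The 13 had a median log2 ratio of -0.36 in that pair. In the vehicle cells of that round the share was 3.12% with UV-A and 3.02% in the dark.

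The 13 mRNAs differed in extent. MT-ND6, of complex I, had 55.1 FPKM in 1-SO UV-A and 614 in 1-SO dark, against 513 in vehicle UV-A and 514 in vehicle dark, a log2 ratio of -3.48 (-3.60 to -3.36). It is the mRNA encoded on the other strand from the rest, and the sources used here do not say whether reads were counted by strand. MT-ND3 had 367 against 2236 FPKM (log2 -2.61), and MT-CO2 1163 against 5348 (-2.20). MT-CYB had 283 against 1246 (-2.14). The smallest differences were those of MT-ND1, with 894 against 1651 (-0.88), MT-ATP8 (-1.05, few reads) and MT-ND2, with 1043 against 2529 (-1.28). MT-ND1 and MT-ND2 are the first mRNAs downstream of the heavy-strand promoter, whereas MT-CYB and MT-ND5 (-1.80) lie farthest from it. MT-ND3 and MT-CO2 lie between them and had lower ratios than either, so the ratios did not follow the order of genes throughout.

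**Figure D4:**
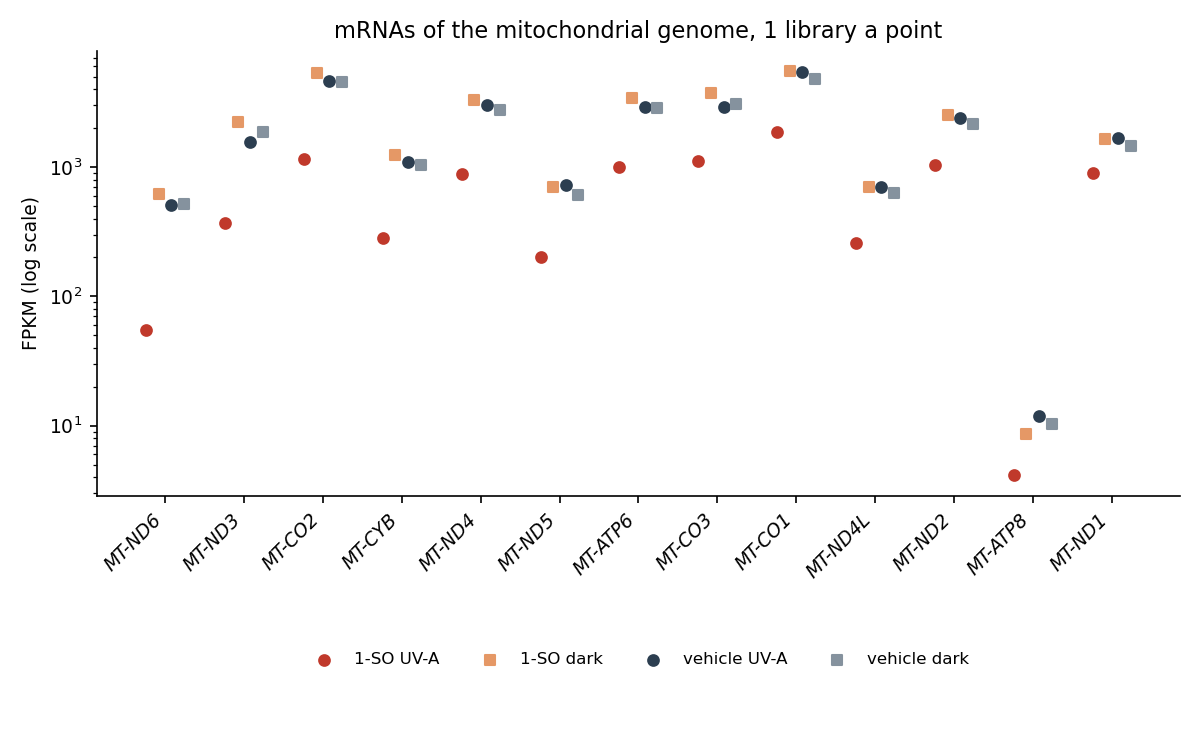
Levels of the 13 mitochondrially encoded mRNAs in FPKM (y axis, log scale) in the 4 libraries of round 1, 1 library a point, ordered from the lowest log2 ratio to the highest. The 1-SO UV-A point lies lowest for each mRNA, at 55.1 FPKM for MT-ND6 and 894 for MT-ND1.

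Nuclear genes for mitochondria did not share this. Of 61 nuclear respiratory chain genes 1 was at least 2-fold higher and 0 lower, and the median log2 ratio was -0.29 with 1-SO and -0.26 in vehicle cells. NDUFA13 of complex I was the higher gene (1.18), and COX8A and UQCRQ had -0.90 and -0.86. Of 20 genes for mitochondrial transcription and RNA handling 0 were 2-fold different in either direction. Among those farthest from 0, MTERF1 (listed as MTERF) and TFB1M had log2 ratios of 0.86 and 0.74, and PNPT1, a mitochondrial RNA exonuclease, had -0.69. Of 15 mitochondrial chaperones and proteases 0 were 2-fold different, and the chaperonin genes HSPE1 and HSPD1 had -0.91 and -0.62. For this last list the median was 0.03 and lay at -0.10 under either other scaling.

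DNA replication genes had a log2 ratio under 0 in all 29 cases, with 1-SO and in vehicle cells alike. Of these 19 were at least 2-fold lower with 1-SO, beside 3.85% of all genes, and 2 in vehicle cells. The median log2 ratio was -1.12 with 1-SO and -0.54 in vehicle cells. GINS2, a helicase subunit, had 2.44 FPKM in 1-SO UV-A and 12.6 in 1-SO dark, against 6.22 in vehicle UV-A and 13.2 in vehicle dark. TYMS, thymidylate synthase, had 12.9 and 58.2 FPKM with 1-SO and 32.0 and 58.8 in vehicle cells. The helicase genes MCM2 to MCM7 had log2 ratios between -1.07 for MCM7 and -1.53 for MCM3, and PCNA, the polymerase clamp, had -1.03. Irradiated vehicle cells lay between irradiated 1-SO cells and the dark libraries for each of GINS2, TYMS, MCM3 and PCNA.

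Several of their regulators were lower too. E2F1 had 15.5 FPKM in 1-SO UV-A and 64.9 in 1-SO dark, against 34.6 in vehicle UV-A and 71.0 in vehicle dark, and E2F2 0.356 and 3.64, against 1.78 and 4.02. CCNE2, a cyclin of entry into S phase, and CDC25A, which activates its kinase, had log2 ratios of -1.56 and -1.04. E2F8, a repressor of the family, had -1.43. CCND2, a G1 cyclin, was higher, with 7.62 against 1.43 FPKM (log2 2.41). UHRF1, an E2F target that maintains DNA methylation, is listed as noncoding in the files and had 6.71 FPKM against 40.7 (log2 -2.60). Of 30 repair genes 7 were at least 2-fold lower, beside 3.85% of all genes, led by UNG, which removes uracil from DNA, with 25.8 against 111 FPKM (log2 -2.11). RAD54L, EXO1, BRIP1, MSH6, LIG1 and BARD1 had log2 ratios from -1.51 to -1.02.

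E2F sites were searched as TTTNGCGC. These letters occurred in 8.01% of 312 windows of genes at least 2-fold lower, 1.51% of 331 of higher genes, 3.08% of kept genes and 1.83% of all. In the replication list 11 of 26 promoters held them. E2F1 (- strand of chr20:33686336-33686635, GRCh38.p14) is shown as a regulator, with a match in capitals 20 bases before the gene start. MCM6 (- strand of chr2:135876394-135876693) is shown because its window holds 4 matches, in overlapping pairs that begin 152 and 90 bases before the gene start. MCM6 had 13.2 FPKM in 1-SO UV-A and 37.6 in 1-SO dark, against 19.6 in vehicle UV-A and 39.1 in vehicle dark.
E2F1: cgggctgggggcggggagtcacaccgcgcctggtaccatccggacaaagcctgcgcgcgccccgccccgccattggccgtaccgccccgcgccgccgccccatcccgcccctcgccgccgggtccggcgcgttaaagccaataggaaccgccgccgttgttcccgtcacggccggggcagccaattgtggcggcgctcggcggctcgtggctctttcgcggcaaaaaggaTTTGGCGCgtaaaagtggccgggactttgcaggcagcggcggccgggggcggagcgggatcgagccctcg
MCM6: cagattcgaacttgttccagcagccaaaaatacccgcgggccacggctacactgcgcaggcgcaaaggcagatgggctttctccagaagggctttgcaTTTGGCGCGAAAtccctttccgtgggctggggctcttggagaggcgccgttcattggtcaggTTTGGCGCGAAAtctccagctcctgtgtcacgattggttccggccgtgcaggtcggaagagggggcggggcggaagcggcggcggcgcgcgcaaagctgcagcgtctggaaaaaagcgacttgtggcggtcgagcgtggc

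Genes of mitosis and the spindle had opposite signs in the 2 cell populations. Of 30 genes 28 were below 0 with 1-SO, 3 of them at least 2-fold lower, whereas 26 were above 0 in vehicle cells. The medians were -0.55 and 0.39, and 30 of 30 genes had the lower ratio with 1-SO, beside 1353 of 3055 protein-coding genes that span 20 to 50 kb. PLK1, a mitotic kinase, had 7.61 FPKM in 1-SO UV-A and 14.9 in 1-SO dark, but 24.5 in vehicle UV-A and 14.8 in vehicle dark. CDC20, which activates the anaphase-promoting complex, had 39.1 and 80.5 FPKM with 1-SO and 115 and 87.8 in vehicle cells. ANLN of the cleavage furrow and BIRC5 of the chromosomal passenger complex had log2 ratios of -1.12 and -1.29 with 1-SO and of 0.38 and -0.33 in vehicle cells. The difference between the populations rests on 4 libraries and was not tested.

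Several matrix genes were lower, while genes of matrix turnover were divided. Of 20 collagens, laminins and matrix proteins 8 were at least 2-fold lower, beside 3.85% of all genes, and 0 higher, with a median log2 ratio of -0.87 with 1-SO and -0.30 in vehicle cells. COL13A1, a transmembrane collagen, had 35.1 FPKM against 119 (log2 -1.76). LAMA5, a basement membrane laminin, had 15.2 FPKM in 1-SO UV-A and 44.4 in 1-SO dark, against 40.7 in vehicle UV-A and 39.4 in vehicle dark. COL4A2, COL5A1, COL4A1, COL18A1, LAMA3 and COL7A1 had log2 ratios from -1.60 to -1.29. Of 12 matrix proteases, TIMPs, plasminogen activators and their inhibitors 2 were at least 2-fold higher, MMP1 and SERPINB2, and 3 lower, with a median of -0.12. PLAU, urokinase, had 30.0 FPKM against 143 (log2 -2.25), and PLAT, the tissue activator, had 118 against 293. TIMP3, an inhibitor of matrix proteases, had 23.8 against 109 (-2.19). MMP3, a stromelysin under the filter, had 2.28 FPKM in 1-SO UV-A and 0.335 in 1-SO dark. The integrin subunit ITGB5 had -1.26.

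Most listed keratins, the intermediate filaments of epithelia, had ratios under 0. The 8 listed genes had a median log2 ratio of -1.24 with 1-SO and -0.56 in vehicle cells, with 5 at least 2-fold lower. KRT34, a hair keratin outside the list, was higher, with 2.57 FPKM in 1-SO UV-A and 0.418 in 1-SO dark (log2 2.58). With it the median over 9 genes was -1.15. It had 0.903 FPKM in vehicle UV-A and 0.517 in vehicle dark, so it passed the filter by its level in 1-SO UV-A. KRT86, under the filter, was lower, with 0.388 FPKM in 1-SO UV-A and 1.26 in 1-SO dark. KRT80 had 3.83 FPKM in 1-SO UV-A and 23.2 in 1-SO dark, against 15.2 in vehicle UV-A and 23.7 in vehicle dark. KRT7 had 18.0 and 90.6 FPKM with 1-SO, and KRT18 and KRT8 had log2 ratios of -1.33 and -1.15. KRT81 had -2.17, from reads that its close relative KRT86 could share. CAV1, the caveolar coat protein and a marker of the line, had 53.7 FPKM in 1-SO UV-A and 156 in 1-SO dark. The tubulin TUBA1B had -1.04.

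Growth factor pathways held genes of very different level. IGFBP4, which binds insulin-like growth factors, had 257 FPKM in 1-SO UV-A and 1277 in 1-SO dark, against 878 in vehicle UV-A and 1319 in vehicle dark. IGFBP7 had 24.7 and 52.8 with 1-SO, about the ratio of vehicle cells (log2 -1.09 and -1.10). In the TGF-beta and BMP list 6 of 17 genes were at least 2-fold lower and 1 higher. The lower ones were ID1, TGFB2, LTBP1, ID3, SMAD6 and TGFBI, with log2 ratios from -2.07 to -1.11. ID2, a relative of ID1, was the higher, with 1.85 against 0.386 FPKM. JAG1, a Notch ligand, had -1.05, and F3 and NUAK2 among YAP targets had -1.13 and -1.08.

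In metabolism, glycolytic genes had a median log2 ratio of -0.53 over 23 genes with 1-SO and -0.24 in vehicle cells. LDHA, which reduces pyruvate to lactate, had 163 FPKM in 1-SO UV-A and 497 in 1-SO dark, ENO1 573 and 1284, and PKM 388 and 780. SLC2A3, a glucose transporter, was higher, with 27.2 and 10.2. Among 14 host transcripts of snoRNAs ZFAS1 had 161 against 70.7 FPKM (log2 1.19), and the median was 0.35 with 1-SO and -0.21 in vehicle cells.

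The 75 ribosomal protein genes gave a contrast. In vehicle cells 75 of 75 had a log2 ratio under 0, with a median of -0.41. With 1-SO 31 were above and 44 below, with a median of -0.06, and 0 were 2-fold different in either population. RPS2 showed little of this contrast, with 522 FPKM in 1-SO UV-A and 713 in 1-SO dark, against 521 in vehicle UV-A and 759 in vehicle dark. Of 22 genes of ribosome biogenesis and MYC 1 was at least 2-fold higher, the MYC antagonist MXD1 with 14.4 FPKM against 6.25, and NCL and FBL of the nucleolus had -0.58 and -0.60. Among SR proteins, which guide splicing, SRSF2 had -1.30.

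Very long genes had low ratios. The class was chosen after values had been seen, when 5 of the 15 lowest genes, PARD3B, NEGR1, GPC6, SDK1 and KIRREL3, were found to span over 500 kb. The longest of the 15 highest spans 78.2 kb. Of 107 protein-coding genes over 500 kb, 35 (32.7%) were at least 2-fold lower and 4 higher with 1-SO, beside 3.77% and 4.02% of 11023 protein-coding genes. Their median log2 ratio was -0.70, against 0.15 for the 3055 genes of 20 to 50 kb. In vehicle cells the median was -0.32 and 15 (14.0%) were at least 2-fold lower, beside 0.417% of protein-coding genes. Between 1-SO dark and vehicle dark the median of the 107 genes was 0.01. In the second round, over the 106 of them measured there, the median ratio of UV-A over dark was -0.05 with 1-S. In the vehicle cells of that round it was -0.06, so the low ratios of vehicle cells did not recur there either.

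NEGR1, a neural adhesion protein, spans 880 kb and had 0.914 FPKM in 1-SO UV-A and 8.99 in 1-SO dark, against 2.29 in vehicle UV-A and 8.58 in vehicle dark. PARD3B, a polarity protein of 1074 kb, had 0.281 and 2.90 FPKM with 1-SO, against 0.959 and 2.88 in vehicle cells. GPC6, a glypican of 1181 kb, had 0.216 and 1.83 FPKM with 1-SO and 0.186 and 2.30 in vehicle cells, so it was no lower with 1-SO than without. CDH4, a cadherin of 688 kb, had 3.87 and 19.5 FPKM with 1-SO and 7.69 and 20.9 in vehicle cells, and EXOC4, of the exocyst, had log2 ratios of -2.35 and -1.41. Genes of 200 to 500 kb had a median of -0.06, with 61 of 620 at least 2-fold lower. FHOD3, an actin nucleator of 482 kb among the 15 lowest, is of that class.

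Level and transcript length moved with span, as the 107 genes had a median of 4.71 FPKM in 1-SO dark and of 6095 bases of exons, against 12.5 FPKM and 3518 bases for genes of 20 to 50 kb. With kept genes split in 3 by mean FPKM, their medians from the lowest to the highest level were -0.87, -0.40 and -0.15, over 73, 29 and 5 genes. Split in 3 by exonic length, from the shortest to the longest, they were -0.91, -0.98 and -0.55, over 13, 18 and 76 genes. The exceptions were HDAC9, MCTP1, KIAA1217 and PDE4D, at least 2-fold higher with log2 ratios of 1.75, 1.38, 1.08 and 1.04.

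**Figure D5:**
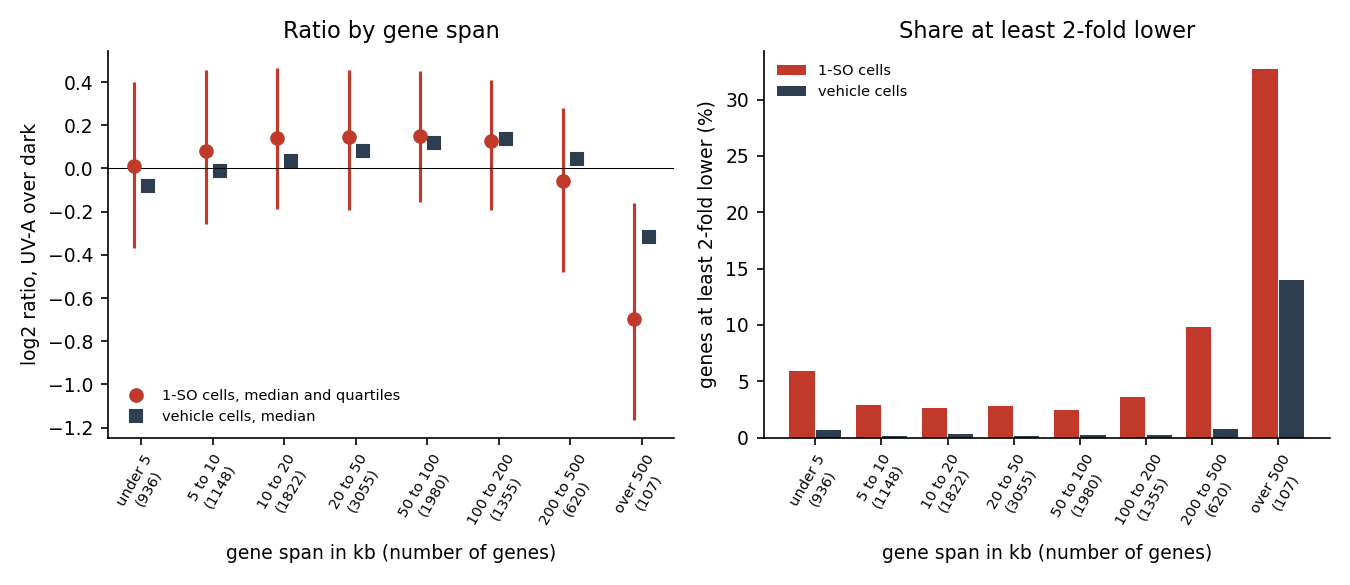
Left, log2 ratio of UV-A over dark (y axis) by gene span in kb (x axis) for protein-coding genes, as median and quartiles for 1-SO cells and as median for vehicle cells. Right, percent of genes at least 2-fold lower in each span class. Genes over 500 kb stand at a median of -0.70 with 1-SO and -0.32 in vehicle cells, and 32.7% and 14.0% of them were at least 2-fold lower.

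The 1-S pair of the second round had few 2-fold genes. 1-S lacks the oxo group of 1-SO, and its wells were irradiated in the same way, but compound, round and passage differ together and cannot be told apart. Of 11785 genes also measured in that round, 148 (1.26%) differed at least 2-fold between 1-S UV-A and 1-S dark, and in the vehicle cells of that round 113 (0.959%). In the 1-S pair MMP1 had a log2 ratio of -0.16, HSPA6 0.05, SLC7A11 -0.55 and CYP1B1 -0.08. In the vehicle cells of that round they had -0.16, -0.42, -0.06 and -0.23, against 2.51, 1.59, 1.32 and 2.12 in vehicle cells of the first round. The light response of vehicle cells at these genes thus did not recur in the second round either. In the 1-S pair the eIF2 list had a median of 0.14 and DNA replication 0.07. TNS4 stood at 1.55 and MIR210HG at 1.53 in the 1-S pair, against -3.35 and -3.15 with 1-SO. Matrix genes and integrins had medians of -0.39 in the 1-S pair.

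Of 1215 noncoding transcripts 148 were at least 2-fold higher (12.2%) and 55 lower (4.53%), beside 443 (4.02%) and 416 (3.77%) of 11023 protein-coding genes, a difference that was not tested. In vehicle cells the noncoding counts were 63 (5.19%) and 36 (2.96%). Level was not matched between noncoding and protein-coding genes. With protein-coding genes split in 3 by mean FPKM, 7.34% to 13.4% of the lowest class were higher in span classes under 100 kb. In longer span classes 1.83% to 4.11% were. The filter on mean FPKM includes 1-SO UV-A, so a transcript that is low elsewhere can pass by its level there. The lowest of those with at least 100 reads was MIR210HG, host of the hypoxia-induced miR-210, with 0.298 FPKM against 2.75. The highest was RP11-443P15.2, with 3.02 against 0.220 FPKM, followed by AC104135.4, CTD-3137H5.1, the pseudogene HSD3BP5 and DLGAP1-AS2 with log2 ratios from 2.82 to 2.23. RP11-424C20.2, RP11-214O1.2 and SERTAD4-AS1 were low, with -2.63, -2.22 and -1.61. For antisense transcripts the reads cannot be told from those of the gene opposite unless counting used the strand.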

How the data were processed

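Poly-A-selected RNA was sequenced. The authors' deposited tables hold whole-number read counts per gene, not normalized, and FPKM values, which the authors made from those counts, gene length and library total, as recomputing them to within 2e-07 showed. Per the submitters' processing notes, the tools were HTSeq 0.6.1 and STAR 2.5, TopHat and STAR-Fusion, DESeq2 and edgeR 3.16.5, with hg38 and hg19 as builds. Their roles, and any use of strand in counting, are not given in the sources used here. Counts of round 1 came from the deposited comparison tables joined on gene ID, a missing gene being taken as 0.

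Genes with a mean FPKM of at least 1 and at least 40 reads over the 4 libraries of round 1 were kept, 12238 of 48162, with 99.4 to 99.5% of reads. Ratios were log2 of counts per 1000000 library reads (CPM) with a prior of 0.5 reads, scaled to library size, computed with Python 3.11.15, pandas 2.3.3 and scipy 1.17.1. Exact conditional (Clopper-Pearson) intervals at 95% cover counting error only, as PCR copies were not told apart by molecular identifiers. A count of 0 allows up to 3 reads, or 0.135 CPM in 1-SO UV-A and 0.169 in 1-SO dark. Genes were called at 2-fold, with no test, as each group is 1 library. The round 2 libraries were only compared with each other.

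The 45 gene lists (910 symbols, 908 with a gene ID) and the comparison itself were chosen with earlier results of these data known. The text names the 15 highest and 15 lowest protein-coding genes with at least 100 reads in the pair, the 5 highest and 5 lowest noncoding genes, the 5 largest gains and losses in CPM, and in each list the 4 members farthest from 0 and any 2-fold member, apart from some results that are not reported here. Other members of a list, and genes over 500 kb, are named after their values were seen. Of 11023 kept protein-coding genes 9040 matched a RefSeq promoter by symbol. Alternatives were TMM and median-of-ratios scaling (edgeR 4.0.16, DESeq2 1.42.0, R 4.3.3), other filters, prior reads and thresholds, log2(FPKM + 1), vehicle dark as the comparator, and edgeR's quasi-likelihood fit over 8 libraries. The code of the size rule and of the edgeR fit was run on simulated counts, which says nothing of the spread between wells.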

Additional observations from a re-analysis of the deposited data

Results flagged for a closer look

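Only genes with at least 100 reads in the pair were searched. They also had to be at least 2-fold different with 1-SO or be in a gene list. In 8 of them the log2 ratio of UV-A over dark had opposite signs in 1-SO cells and vehicle cells of round 1. Both ratios were at least 1.5-fold. Genes outside these limits were not counted. The 8 genes were flagged as a difference between the 2 cell populations that was not tested, since each group is 1 library.

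Both mitotic genes among them were lower with 1-SO and higher without. PLK1 had -0.97 with 1-SO and 0.73 in vehicle cells, and the spindle motor KIF20A had -0.79 and 1.07. KIF20A stood at 12.2 FPKM in 1-SO UV-A and 21.1 in 1-SO dark, against 48.2 in vehicle UV-A and 22.9 in vehicle dark. The histone gene HIST1H2AG had -1.27 and 0.91, and the noncoding RP11-331F9.10 had -1.61 with 5.71 FPKM against 17.6, beside 20.3 against 6.95 in vehicle cells.

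The cytokine GDF15 had 2.27 with 1-SO and -0.62 in vehicle cells. The keratin KRT10 had 0.68, with 32.9 FPKM in 1-SO UV-A and 20.5 in 1-SO dark, against 14.0 in vehicle UV-A and 21.6 in vehicle dark. TRIM61 and the zinc finger gene ZNF442 each had 1.17 with 1-SO. ZNF442 stood at 1.59 FPKM against 0.704 with 1-SO and at 0.678 against 1.10 in vehicle cells.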

How the results depend on the processing

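No paired analysis was possible because each compound group holds 1 library and the result comes from no test. The 1062 genes at least 2-fold different (591 higher, 471 lower) became 7868 (4734 and 3134) with no filter beyond 1 read in the pair, 500 (225 and 275) at a mean FPKM of at least 5, 618 (310 and 308) on log2(FPKM + 1), which understates low genes, 546 (266 and 280) where the whole counting interval lay beyond 2-fold, and 3390 (2139 and 1251) at 1.5-fold. The counts follow from the construction of each alternative. A prior of 5 reads gave 958. With TMM or median of ratios 903 and 901 of the 1062 genes remained 2-fold different, and against vehicle dark 889 did in the same direction.

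edgeR's quasi-likelihood fit over 8 libraries, which takes its spread from vehicle cells with 1 residual degree of freedom, called 1908 of 11982 genes, 738 higher and 1170 lower (3583 at an unadjusted p under 0.05). The fit takes this contrast from the same 2 libraries whose ratio picked the 2-fold and named genes. Agreement in direction was therefore fixed in advance and gives no further support. Its spread says nothing of the spread between 1-SO wells. Under TMM and median of ratios, which shift the median gene by -0.12, 93 and 94 of 198 named genes moved out of their counting intervals, and 31 of the 45 list medians moved under each by more than the typical half-width of a member's interval. Against vehicle dark 57 of the 198 genes left their intervals. None of the 198 changed sign in these. Of the 45 lists, that of mitochondrial chaperones and proteases alone had a median that switched sign with scaling, 0.03 against -0.10. Genes over 500 kb kept a median of -0.82 under either scaling and of -0.75 against vehicle dark, alternatives added after the data were seen.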

Other observations

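The families below were chosen after values were seen and get no test. Zinc finger genes, taken by symbol alone as those named ZNF and a number, had a median log2 ratio of 0.54 with 1-SO, beside 0.12 for all kept genes. Of 356 kept, 321 were above 0, beside 59.8% of all genes. At least 2-fold higher were 33 (9.27%), beside 4.02% of protein-coding genes, and 2 were lower. That comparison did not match genes for level. With protein-coding genes split in 3 by mean FPKM, 7.34% to 13.4% of the lowest class were higher in span classes under 100 kb. In longer span classes 1.83% to 4.11% were. In vehicle cells the median was 0.24 and 0 were 2-fold different in either direction. There 301 of the 356 (84.6%) were above 0 as well, beside 59.9% of all genes.

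Of 22 histone genes with symbols starting with HIST, 8 were at least 2-fold lower with 1-SO, beside 3.77% of protein-coding genes, and 0 higher. The median was -0.43 with 1-SO and 0.57 in vehicle cells, where 18 of 22 were above 0. The linker histone HIST1H1E had 6.42 FPKM in 1-SO UV-A and 12.4 in 1-SO dark, against 12.7 in vehicle UV-A and 8.54 in vehicle dark. The 8 lower genes all rest on few reads, 4 to 39 in 1-SO UV-A and 16 to 76 in 1-SO dark. HIST1H2BK, HIST1H1C and HIST1H2AC, with 2883, 1769 and 1923 reads in 1-SO UV-A, had log2 ratios of -0.14, 0.17 and 0.34. The mRNAs of most replication histones lack the poly-A tail by which the libraries were selected.

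Of 9 genes of S100 calcium-binding proteins 9 had a log2 ratio under 0 with 1-SO. In vehicle cells 100% of them were under 0 too, beside 40.1% of all genes. With 1-SO 4 were at least 2-fold lower, beside the same 3.77%. The median was -0.95, against -0.30 in vehicle cells. S100A4, linked to cell motility, had 74.8 FPKM in 1-SO UV-A and 292 in 1-SO dark, against 169 in vehicle UV-A and 270 in vehicle dark. S100A6 had 1191 and 2857 FPKM with 1-SO, and S100A11 462 and 515.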
